A study of Mus musculus with 24 samples.

Results

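The circadian clock genes examined here were 10 of the 55401 genes with a count in the gastrocnemius RNA-seq data, taken by symbol through their Ensembl identifiers. They were Arntl, Npas2 and Clock, the activator phase genes, and Nr1d1, Nr1d2, Per1, Per2, Per3, Dbp and Ciart, the repressor phase genes. All 10 matched exactly 1 gene and passed the filter on low counts, so 10 of 10 were tested. Gastrocnemius muscle came from male C57BL6 mice 24 h after the procedure, and each mouse gave 1 poly-A RNA library. Sham and burned mice of both ages formed 4 groups of 3 mice, called young sham, adult sham, young burn and adult burn. Young mice arrived at 4 weeks of age and were burned at 5 weeks, and adult mice at 10 and 11 weeks. Burn was a full-thickness scald over 25% of the body surface. Sham mice had the same anaesthesia with isoflurane and the same analgesia with buprenorphine, without the scald. Only burned mice received lactated Ringer's solution, so burn and resuscitation cannot be told apart. All mice lived under a light and dark cycle of 12 h each with free access to food. No source used here gives the hour of the day at which tissue was taken, and its part in the differences between mice was not tested.

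The clock of a cell is a feedback loop of transcription. Arntl, also called Bmal1, pairs with Clock or its relative Npas2 and binds E-boxes in the promoters of the Per, Nr1d, Dbp and Ciart genes. The Per proteins act with the cryptochromes to inhibit this pair, and the Nr1d proteins (Rev-erb) repress Arntl and Npas2 through the element called RORE. Activator and repressor phase transcripts therefore peak at opposite times of day in most tissues, and skeletal muscle has such a clock, which is known to drive genes of glucose use and of muscle maintenance.

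Total counts ran from 4392605 to 5688512 per library. The study's quality report gave no RNA integrity number for any of the 12 samples. Its ratio of large to small ribosomal RNA was as high or higher in every adult sham mouse than in every young sham mouse. The part of RNA quality in the differences between these groups was not tested. The study left 1 young burn animal out as an outlier and its heat map shows young burn replicates 1 and 3. Fold changes therefore come from 11 libraries, with young burn replicate 2 left out and 2 mice in that arm, and all 12 libraries serve as the alternative. That library stood apart. Its counts differed from those of the other young burn mice with a chi-square of 28.6 and 38.3 per degree of freedom over genes, against 3.49 to 13.1 for the other pairs of mice within a group. Levels below are CPM, counts scaled to a library of 1000000 after TMM normalization over all 12 libraries, in the order of replicates 1, 2 and 3. Calls were made in edgeR's quasi-likelihood test where the p, adjusted by Benjamini and Hochberg's method over all 12651 genes tested, was under 0.05. Adjusted p values below come from that test unless DESeq2 is named. The 5 myofibre markers Acta1, Ckm, Myh4, Myh1 and Tnnt3 were present in every group, with summed levels of 65033 to 124548 CPM per library. In such bulk tissue, fewer cells of a type and less RNA per cell cannot be told apart.

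Promoter windows from RefSeq on GRCm38.p6, 250 bases before to 50 bases after a transcription start, were held for 9 of the 10 genes, in 13 windows. They were searched on both strands for the E-box CACGTG, for the D-box TTATGTAA or TTATGCAA, which Dbp protein binds, and for the RORE. No match overlapped one of another motif. Ciart had 3 E-boxes, starting at positions -116, -58 and -44 from the transcription start, where 7.15% of all 32851 windows held at least 1 and 0.0883% held at least 3. Per3 had 2 D-boxes, starting at -205 and -158, where 1.66% of all windows held at least 1 and 0.0487% at least 2. Per1 had 1 E-box at -166 and 1 D-box at -24. Arntl had a RORE at positions 28 to 37 of its second window, a motif found in 1.53% of all windows. The other windows of the clock genes held none of these letters. The stretches with matches are shown because they carry the elements through which the loop is known to be read, with the matched motif in capitals, 5′ to 3′ on the strand of the gene. Those of Ciart (chr3:95882252-95882478, minus strand), Per3 (chr4:151044666-151044915, minus strand) and Per1 (chr11:69098699-69098947, plus strand) lie before the first exon at that start, and that of Arntl (chr7:113207528-113207557, plus strand) lies just after the start.
Ciart: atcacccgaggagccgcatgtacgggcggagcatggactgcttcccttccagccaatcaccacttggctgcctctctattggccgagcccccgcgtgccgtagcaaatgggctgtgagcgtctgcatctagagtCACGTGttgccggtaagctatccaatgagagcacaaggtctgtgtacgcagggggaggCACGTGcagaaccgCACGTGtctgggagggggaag
Per3: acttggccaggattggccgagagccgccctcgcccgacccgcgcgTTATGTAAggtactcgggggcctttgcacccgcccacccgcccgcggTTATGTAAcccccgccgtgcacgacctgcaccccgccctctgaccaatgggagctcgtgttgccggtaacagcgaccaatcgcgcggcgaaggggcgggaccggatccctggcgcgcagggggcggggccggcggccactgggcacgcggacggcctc
Per1: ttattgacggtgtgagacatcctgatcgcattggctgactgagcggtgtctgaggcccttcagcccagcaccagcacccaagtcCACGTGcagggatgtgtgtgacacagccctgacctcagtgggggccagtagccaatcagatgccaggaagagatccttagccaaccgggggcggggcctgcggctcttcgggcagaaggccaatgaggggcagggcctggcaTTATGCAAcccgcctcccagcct
Arntl: ggaaggcagaAAGTAGGTCAgggacggagg

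**Figure D1:**
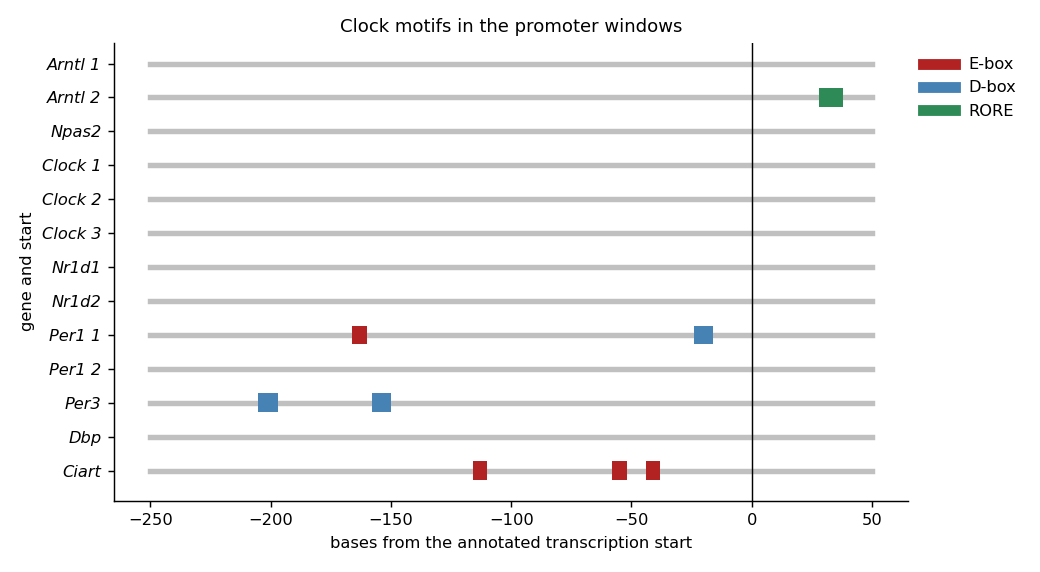
Positions of E-box, D-box and RORE matches in the 13 promoter windows of 9 clock genes, in bases from the annotated transcription start on the x axis, with 1 grey line per window. Ciart carries 3 E-boxes and Per3 2 D-boxes upstream of the start.

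Per kilobase of exon, Nr1d1 was the highest of the 10 genes in adult sham, with 62.8 ± 11.8 CPM per kb (SD, n = 3), followed by Dbp with 45.7 ± 15.5 and Nr1d2 with 40.0 ± 3.7. The ranges of Nr1d1 and Dbp overlapped, as did those of Dbp and Nr1d2. A gap followed, to Ciart with 5.43 ± 2.68 and Per1 with 5.29 ± 0.96 CPM per kb, which overlapped each other. Per3, Clock, Per2 and Arntl lay between 3.38 and 2.06 CPM per kb, each overlapping its neighbour in this order. Npas2 was lowest, with 0.444 ± 0.425 CPM per kb. In young sham Nr1d2 came first with 42.0 ± 5.7 CPM per kb, and its range overlapped that of Nr1d1, the next. Ciart moved to the eighth rank with 1.81 ± 0.42, and overlapped its neighbours Arntl and Per2. Counts of Npas2 were 3 to 35 reads per library and those of Per2 10 to 97, so counting error weighs more on these genes than on Nr1d2, with 954 to 1524 reads.

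Among the activators, Arntl (ENSMUSG00000055116.8, chromosome 7 from 113207465 to 113314126), the partner common to both forms of the activator, was at 15.8, 26.5 and 13.4 CPM in young sham and at 5.38, 23.6 and 5.11 CPM in young burn. In adults it was at 10.1, 12.9 and 23.5 CPM in sham and at 19.96, 14.6 and 15.04 CPM in burn. Young burn replicates 1 and 3 were the lowest of all 12 libraries, and young burn replicate 2 was among the 3 highest. Npas2 (ENSMUSG00000026077.15, chromosome 1 from 39193731 to 39363236), which can take the place of Clock, was at 4.38, 7.09 and 3.66 CPM in young sham and at 1.79, 2.74 and 1.64 CPM in young burn. It was at 1.24, 0.680 and 4.45 CPM in adult sham and at 4.53, 1.08 and 0.557 CPM in adult burn. The 3 young burn mice lay below the 3 young sham mice, while 1 mouse in each adult group lay inside the young sham range. Clock (ENSMUSG00000029238.11, chromosome 5 from 76209868 to 76304792) varied least of the 3, with 45.3, 56.1 and 40.7 CPM in young sham and 28.5, 42.5 and 33.5 CPM in young burn. It had 37.4, 47.4 and 46.5 CPM in adult sham and 39.4, 47.0 and 38.1 CPM in adult burn. Young burn replicates 1 and 3 were again the lowest libraries.

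Among the nuclear receptors that repress Arntl, Nr1d1 (ENSMUSG00000020889.11, chromosome 11 from 98767932 to 98775333) was at 162, 93.4 and 95.3 CPM in young sham and at 75.8, 44.9 and 80.7 CPM in young burn. It was at 165, 180 and 234 CPM in adult sham and at 111, 151 and 182 CPM in adult burn. Every adult sham mouse was above every young sham mouse, and every adult burn mouse above every young burn mouse. Nr1d1 shares 263 exon bases with Thra on the opposite strand, and no source used here names the strand counted, so reads of that stretch cannot be assigned with certainty. Its paralogue Nr1d2 (ENSMUSG00000021775.11, chromosome 14 from 18204054 to 18239127) was steadier, at 235, 193 and 254 CPM in young sham and 273, 198 and 253 CPM in young burn. It was at 207, 239 and 203 CPM in adult sham and 166, 192 and 198 CPM in adult burn, where all 3 mice were below the 3 adult sham mice.

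Of the Period genes, which encode the inhibitors of the activator pair, Per1 (ENSMUSG00000020893.17, chromosome 11 from 69095217 to 69109960) is also known to respond quickly to glucocorticoids. It was at 38.0, 7.70 and 12.4 CPM in young sham and at 17.6, 73.2 and 23.9 CPM in young burn. It was at 35.8, 28.3 and 25.2 CPM in adult sham and at 31.7, 55.8 and 42.0 CPM in adult burn. Young burn replicate 2 had the highest Per1 of all libraries and young sham replicate 2 the lowest. Per2 (ENSMUSG00000055866.9, chromosome 1 from 91415982 to 91459324) was at 7.31, 2.03 and 9.51 CPM in young sham and at 11.6, 10.8 and 17.2 CPM in young burn, without overlap. It was at 19.4, 16.8 and 5.51 CPM in adult sham and at 12.1, 12.3 and 18.0 CPM in adult burn. Per2 in adult sham replicate 3 was the only adult value inside the young sham range. Per3 (ENSMUSG00000028957.12, chromosome 4 from 151003652 to 151044665) was at 25.1, 16.4 and 41.7 CPM in young sham and at 45.2, 19.0 and 49.5 CPM in young burn. It was at 40.5, 38.7 and 18.0 CPM in adult sham and at 18.4, 32.7 and 32.7 CPM in adult burn. Its level was low, near 18 CPM, in 1 mouse of each adult group and at 19.0 CPM in young burn replicate 2. It was lowest in young sham replicate 2, at 16.4 CPM.

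Dbp (ENSMUSG00000059824.12, chromosome 7 from 45705088 to 45710203) encodes an output factor of the clock that binds D-boxes. It was at 93.5, 49.8 and 99.0 CPM in young sham and at 131, 36.2 and 122 CPM in young burn. It was at 177, 146 and 86.1 CPM in adult sham and at 71.4, 139 and 173 CPM in adult burn. In every group 1 mouse was well below the other two. Dbp shares 539 exon bases with Sphk2 on the opposite strand, which limits the assignment of reads as for Nr1d1. Ciart (ENSMUSG00000038550.10, chromosome 3 from 95878503 to 95882251), also known as Chrono, encodes a repressor that binds Arntl protein. It was at 5.11, 3.24 and 3.90 CPM in young sham and at 3.76, 2.37 and 5.11 CPM in young burn. It was at 16.1, 15.4 and 5.30 CPM in adult sham and at 8.05, 12.3 and 23.0 CPM in adult burn. Every young mouse, sham or burn, was below every adult mouse.

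**Figure D2:**
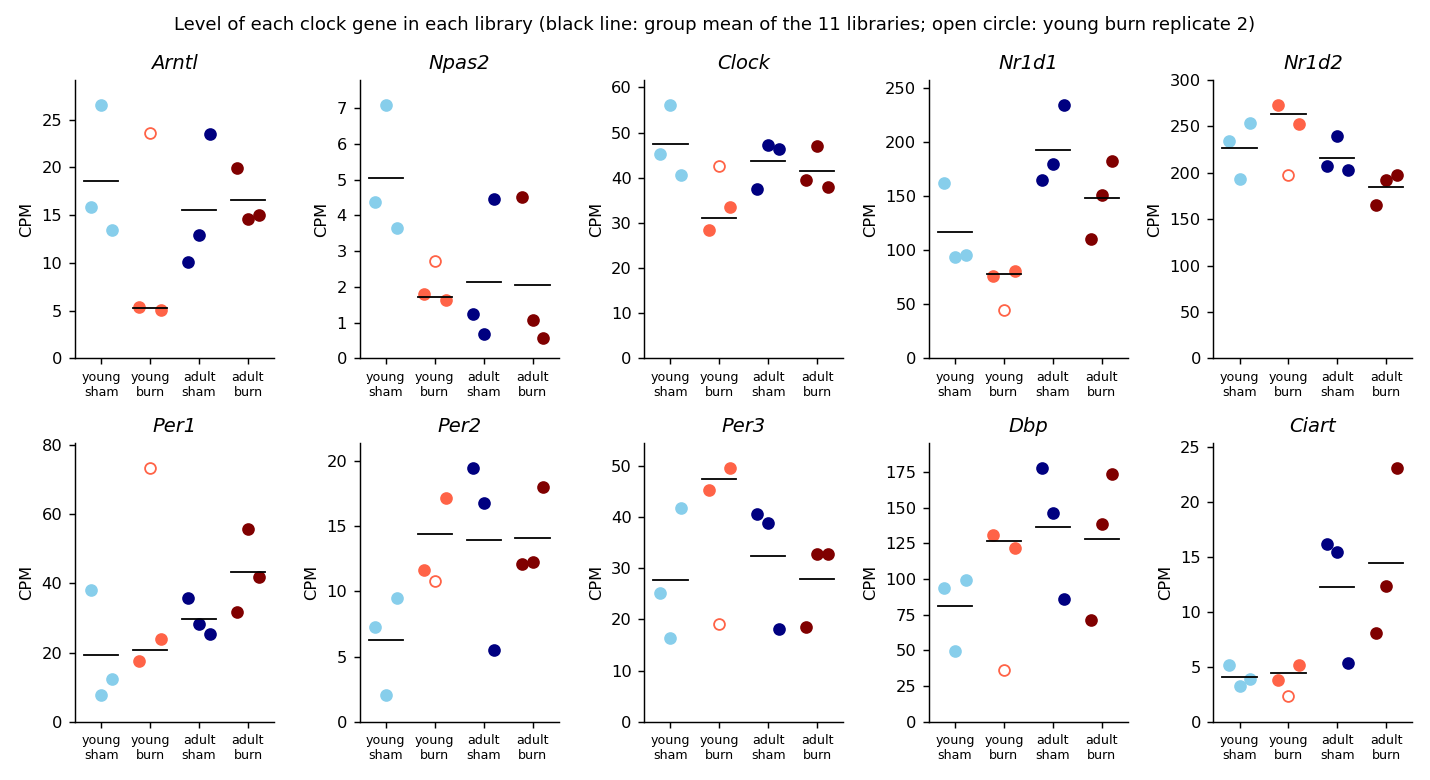
Level of each clock gene in CPM on the y axis, for the 3 mice of each group from left to right as replicates 1, 2 and 3; the black line is the group mean over the 11 libraries and the open circle is young burn replicate 2. Arntl is at 5.38 and 5.11 CPM in the young burn mice drawn filled and at 23.6 CPM in the open one, and every young mouse lies below every adult mouse for Ciart.

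The first comparison asked what burn did in young mice. Arntl was 3.54-fold lower in young burn than in young sham, with a log2 fold change of -1.82 (SE 0.38, adjusted p = 0.0440), and it was the only 1 of the 10 clock genes called, where 0.664% of all genes tested were called and 0.206% were called lower. Both other activators lay on the same side, at -1.55 for Npas2 (SE 0.71, adjusted p = 0.298) and -0.61 for Clock (SE 0.16, adjusted p = 0.0883). Of the 7 repressor phase genes, none was called. Per2 was at a log2 fold change of 1.24 (SE 0.48, adjusted p = 0.228), Per3 at 0.80 (SE 0.34, adjusted p = 0.259) and Dbp at 0.66 (SE 0.34, adjusted p = 0.349). Nr1d1 was on the negative side, at -0.57 (SE 0.24, adjusted p = 0.266). Nr1d2, Per1 and Ciart lay between 0.13 and 0.22. The groups did not overlap for 7 of 10 clock genes, namely the 3 activators, Nr1d1, Per2, Per3 and Dbp, where 32.4% of all genes did not overlap. Only Npas2, Nr1d1 and Per2 did not overlap with all 12 libraries, 3 of 10, where 21.7% of all genes did not. The median log2 fold change was -1.55 over the activators and 0.22 over the repressor phase genes, where it was 0.01 over all genes, and with all 12 libraries it was -0.71 over the activators and 0.26 over the repressor phase genes.

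The call of Arntl rested on few mice. DESeq2 on the same 11 libraries gave an adjusted p of 0.000867, but with all 12 libraries edgeR gave a log2 fold change of -0.71 (SE 0.49, adjusted p = 0.431) and called none of the 10, where 0.0645% of all genes were called, and the groups then overlapped. The call was also lost, at log2 fold changes of -1.46 to -2.02, without young sham replicate 2 (adjusted p = 0.135) or replicate 3 (adjusted p = 0.0597), without young burn replicate 1 (adjusted p = 0.143) or replicate 3 (adjusted p = 0.479), and without adult burn replicate 2 (adjusted p = 0.0547) or replicate 3 (adjusted p = 0.0616). Without either young burn mouse that arm held 1 mouse, assumed to vary like the other groups.

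Between young sham and adult sham, the comparison of age without injury, 2 of 10 clock genes were called, both repressor phase genes lower in young sham, where 6.49% of all genes were called lower and 11.8% in either direction. Ciart was at 4.09 ± 0.95 CPM in young sham and 12.3 ± 6.1 CPM in adult sham (SD, n = 3), a log2 fold change of -1.60 (SE 0.46, adjusted p = 0.0338). Nr1d1 was at 117 ± 39 CPM and 193 ± 36 CPM (SD, n = 3), a log2 fold change of -0.73 (SE 0.21, adjusted p = 0.0350). These were also the 2 of 10 genes whose groups did not overlap, where 31% of all genes did not overlap. Per2 at -1.20 (adjusted p = 0.0978) and Dbp at -0.77 (adjusted p = 0.113) missed the threshold, and 6 of the 7 repressor phase genes had negative log2 fold changes, with a median of -0.73. The 3 activators had positive ones, up to 1.24 for Npas2 (SE 0.61, adjusted p = 0.204).

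With all 12 libraries neither was called, at adjusted p = 0.140 for Nr1d1 and 0.0774 for Ciart, where 3.76% of all genes were called. That library belongs to neither group and enters through the scaling, the genes that pass the filter and the spread common to all groups. Nr1d1 was not called without adult sham replicate 2 (adjusted p = 0.0721) or 3 (adjusted p = 0.120), or without young sham replicate 2 (adjusted p = 0.126) or 3 (adjusted p = 0.156). Ciart was not called without adult sham replicate 1 (adjusted p = 0.120) or 2 (adjusted p = 0.117), or without young sham replicate 2 (adjusted p = 0.110) or 3 (adjusted p = 0.113). Without adult sham replicate 3, Per2 at -1.58 (adjusted p = 0.0172) and Dbp at -1.02 (adjusted p = 0.0436) were called as well.

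Between young burn and adult burn, 4 of 10 clock genes were called, where 20.7% of all genes were. The count was 3 lower and 1 higher in young burn, against 9.54% and 11.2% of all genes. Arntl was lower in young burn, with a log2 fold change of -1.65 (SE 0.37, adjusted p = 0.00748). Ciart was lower by a log2 fold change of -1.69 (SE 0.48, adjusted p = 0.0226) and Nr1d1 by one of -0.91 (SE 0.24, adjusted p = 0.0165). Nr1d2 was higher, with a log2 fold change of 0.51 (SE 0.13, adjusted p = 0.0123), so that the paralogues Nr1d1 and Nr1d2 differed between the ages in opposite directions. Clock at -0.42 (adjusted p = 0.0719), Per1 at -1.05 (adjusted p = 0.0810) and Per3 at 0.77 (adjusted p = 0.106) missed the threshold and did not overlap between the groups. In all 7 of 10 clock genes did not overlap, where 53.1% of all genes did not. Over all 12 libraries Nr1d1, Nr1d2 and Ciart did not overlap, 3 of 10, where 30.3% of all genes did not. Per2, Dbp and Npas2 overlapped, with log2 fold changes of 0.03, -0.01 and -0.29.

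With all 12 libraries, Nr1d1 at -1.14 (adjusted p = 0.0179) and Ciart at -1.95 (adjusted p = 0.0187) were called, and Arntl at -0.54 (adjusted p = 0.507) and Nr1d2 at 0.38 (adjusted p = 0.113) were not, where 10.8% of all genes were called. None of the 10 was called when young burn replicate 1 or 3 was left out of the 11, which again left 1 mouse in that arm, with adjusted p of 0.0617 and 0.0593 for Arntl, 0.117 and 0.0826 for Nr1d1, 0.111 and 0.0516 for Nr1d2, and 0.160 and 0.0838 for Ciart. Without adult burn replicate 3, Nr1d1 (-0.74, adjusted p = 0.0603) and Ciart (-1.20, adjusted p = 0.0864) were not called. Per1 was called without young sham replicate 1 (adjusted p = 0.00669) or replicate 2 (adjusted p = 0.0376).

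Between adult burn and adult sham, none of the 10 clock genes was called, where 0.909% of all genes were. None reached an unadjusted p under 0.05 in edgeR, where 1731 of 12651 genes did. DESeq2 called none, giving no adjusted p for Npas2, Per2 and Ciart. The log2 fold changes ran from -0.39 for Nr1d1 (SE 0.21) to 0.53 for Per1 (SE 0.35), with a median of -0.05. Arntl was at 15.5 ± 7.1 CPM in adult sham and 16.5 ± 3.0 CPM in adult burn (SD, n = 3), a log2 fold change of 0.09 (SE 0.28, adjusted p = 0.925). Nr1d2 was the only 1 of the 10 whose groups did not overlap, at -0.23 (SE 0.12, adjusted p = 0.409), where 20% of all genes did not overlap. The comparisons of this paragraph and of the young mice share no samples, but each burn comparison shares its mice with an age comparison.

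Whether burn acted differently at the 2 ages was tested in an interaction term. None of the 10 clock genes was called, where 0.0949% of all genes were. In edgeR 4 reached an unadjusted p under 0.05, where 1410 of 12651 genes did. DESeq2 called none and gave no adjusted p for Arntl, Npas2, Per2 and Ciart. The difference was -1.92 on the log2 scale for Arntl (SE 0.47, adjusted p = 0.210), -0.53 for Clock (adjusted p = 0.383), 0.45 for Nr1d2 (adjusted p = 0.371) and 1.02 for Per3 (adjusted p = 0.431), each as the effect in young minus that in adult mice. Without adult sham replicate 3 the difference for Arntl was -2.35 and was called (adjusted p = 0.0299), and with all 12 libraries it was -0.81 (adjusted p = 0.806). A burn term fitted beside age over all groups called none of the 10, where 2.15% of all genes were called, and DESeq2 called none. Nr1d1 at -0.46 (adjusted p = 0.138) and Clock at -0.30 (adjusted p = 0.219) reached an unadjusted p under 0.05, where 2101 of 12651 genes did.

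**Figure D3:**
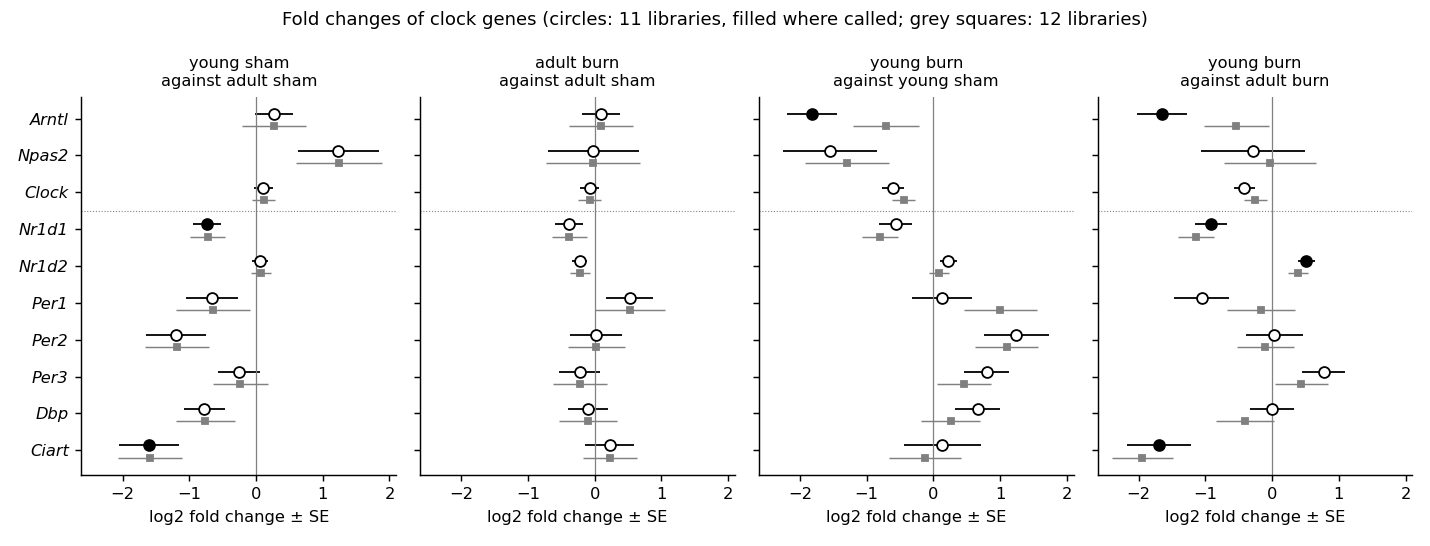
Log2 fold change with its standard error on the x axis for the 10 clock genes in 4 comparisons, from 11 libraries (circles, filled where the adjusted p is under 0.05) and from all 12 (grey squares). Arntl in young burn against young sham is at -1.82 with 11 libraries and at -0.71 with 12, and no circle is filled in adult burn against adult sham.

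In most of these genes, though not in Clock and Nr1d2, mice of the same group differed more than in most genes tested. The SD within groups, on the log2 CPM scale over the 11 libraries, had a median of 0.55 over the 10 clock genes and of 0.21 over all 12651 genes tested. Clock had a larger SD than 44.1% of all genes tested and Nr1d2 than 28.0%. Against the 1000 genes nearest in mean level, Per1 had a larger SD than 99.9%, Dbp than 99.7%, Per2 and Per3 than 99.5% and Npas2 than 99.4%. Ciart, Arntl and Nr1d1 lay at 98.7%, 97.3% and 96.4%, while Clock and Nr1d2 were closer to the middle, at 76.6% and 63.6%.

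These differences had a common order. In each group the mouse with the highest Arntl was compared with the other two, a description chosen after the values were seen. It was young sham replicate 2, young burn replicate 2, adult sham replicate 3 and adult burn replicate 1. Npas2 was the highest of its group in that mouse in 4 of 4 groups, where 1.49% of the other genes tested were. Clock was highest in it in 2 of 4 groups, and other mice were higher in adult sham, at 47.4 against 46.5 CPM, and in adult burn, at 47.0 against 39.4 CPM. Nr1d2, Per2, Per3, Dbp and Ciart were the lowest of their group in it in 4 of 4 groups, where 2.85% of the other genes were, although Per2 in adult burn was lower by only 12.1 against 12.3 CPM. Nr1d1 and Per1 were lowest in 3 of 4 groups. The exceptions were adult sham, where that mouse had the highest Nr1d1 at 234 CPM, and young burn, where it had the highest Per1 at 73.2 CPM. The highest and the lowest mouse of a group differed most in Npas2, 8.13-fold in adult burn and 6.55-fold in adult sham, in Per1, 4.94-fold in young sham, and in Per2, 4.69-fold in young sham. Arntl differed 4.61-fold in young burn and 1.36-fold in adult burn. Among 6 genes listed as cycling in many tissues, 3 to 5 were lowest in that mouse and 0 to 1 highest, depending on the group. Among 15 other clock genes 8 to 10 were lowest and 1 to 6 highest, with 6 highest in young burn. Of all other genes tested, 33.1% to 47.6% were lowest in it and 30.8% to 35.6% highest, both most often in young burn. The mouse had the highest total count of its group in 3 groups and the lowest in young burn, and the lowest summed myofibre markers in 3 groups and the highest in adult sham. The part of depth and of tissue makeup in this order was not tested.

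**Figure D4:**
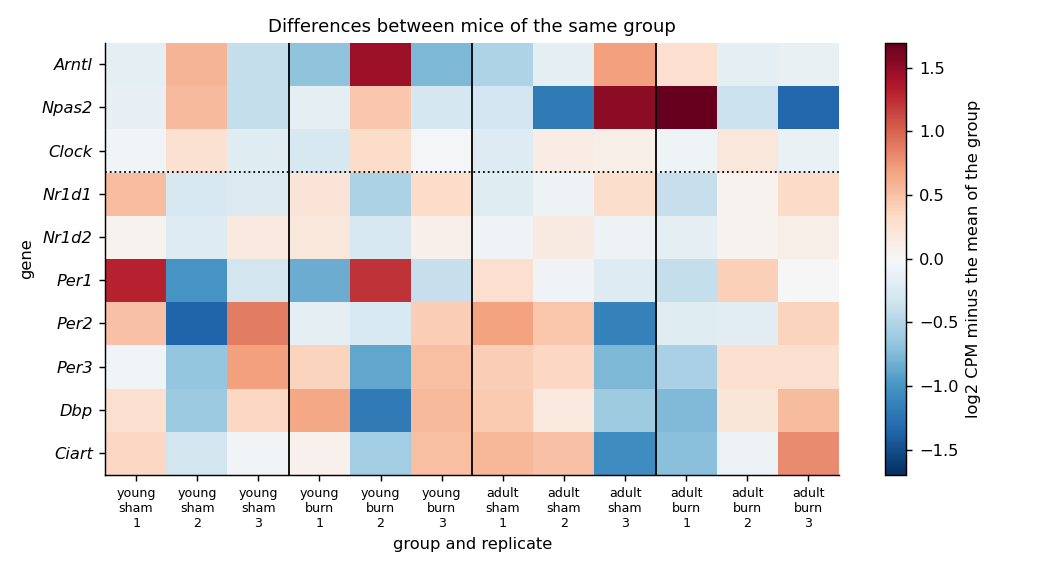
Log2 CPM of each clock gene (rows) in each library (columns) minus the mean of its group of 3, with red above and blue below that mean. In young sham replicate 2, young burn replicate 2, adult sham replicate 3 and adult burn replicate 1, Arntl and Npas2 are red and Per3, Dbp and Ciart are blue.

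Read together as the mean log2 CPM of the 3 activators minus that of the 7 repressor phase genes, the index was -1.37, 0.20 and -1.38 in young sham and -2.41, -0.94 and -2.59 in young burn. It was -2.80, -2.69 and -0.997 in adult sham and -1.20, -2.39 and -2.92 in adult burn. Young sham held the only value above 0, and each other group held 1 mouse near -1 and 2 mice below -2. The group means were -0.85 ± 0.91 in young sham, -1.98 ± 0.90 in young burn, -2.16 ± 1.01 in adult sham and -2.17 ± 0.88 in adult burn (SD, n = 3). With all 12 libraries, the range within a group of 3 mice was 1.58 to 1.80, and the largest difference between group means among the 4 comparisons was 1.31, between young sham and adult sham. Without young burn replicate 2 the young burn mean was -2.50, from 2 mice that were 0.18 apart. Its difference from young sham then moved from -1.13 to -1.65, past the young sham range of 1.58, and its difference from adult burn turned from 0.19 to -0.33. The index is a description and was not tested.

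**Figure D5:**
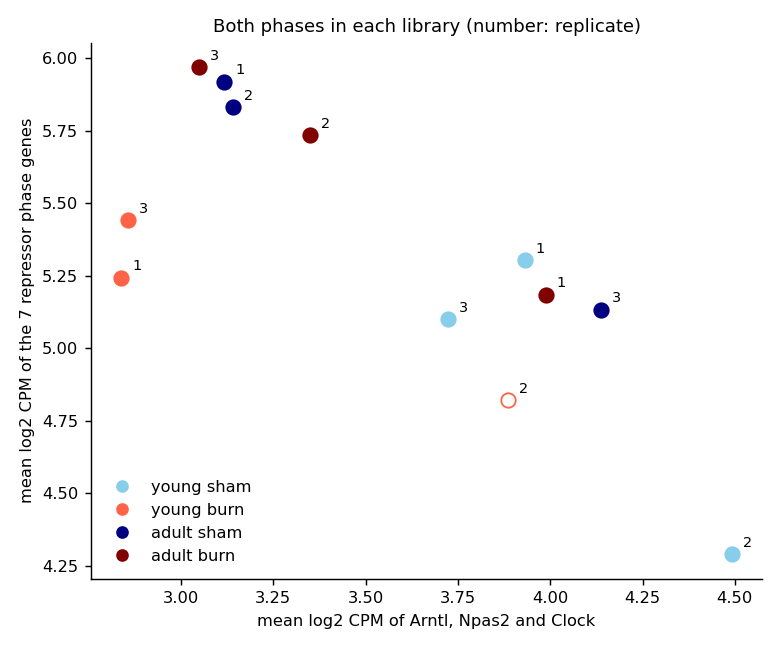
Mean log2 CPM of the 3 activators on the x axis and of the 7 repressor phase genes on the y axis, 1 point per library with its replicate number, the open circle being young burn replicate 2. Young burn replicates 1 and 3 lie at the left with activator means of 2.84 and 2.86, and young sham replicate 2 lies at the lower right at 4.49 and 4.29.

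Other genes of the clock were listed beside these, 15 of 17 tested. Between young sham and adult sham 5 of 15 were called, all lower in young sham, where 6.49% of all genes were called lower, among them Hlf, a D-box factor like Dbp, at -1.08 (adjusted p = 0.00198), and Cry2, a cryptochrome, at -1.16 (adjusted p = 0.00336). The repressor Bhlhe40 was also among them, at -0.88 (adjusted p = 0.0117). After burn in young mice, where 0.664% of all genes were called, 1 rose and 1 fell of 15, Hlf at 1.11 (adjusted p = 0.0233) and Bhlhe41 at -0.90 (adjusted p = 0.0448). Hlf was thus at 33.1 and 33.5 CPM in young burn replicates 1 and 3, and at 22.3 CPM in replicate 2. It was at 20.2, 13.0 and 13.7 CPM in young sham. After burn in adult mice 0 of 15 were called in edgeR and in DESeq2. An unadjusted p under 0.05 in edgeR was found for 6 of them, where 1731 of 12651 genes had one. Between young burn and adult burn 5 were lower and 2 higher, where 20.7% of all genes were called, among them Cry1 at -0.90 (adjusted p = 0.00389), Cry2 at -1.02 (adjusted p = 0.00529) and Arntl2, a paralogue of Arntl, at 1.52 (adjusted p = 0.0142). The medians over the 15 were -0.26, 0.02, 0.18 and -0.33 for age in sham, burn in young, burn in adult and age in burned mice. With all 12 libraries edgeR called 1, 0, 0 and 2 of them, and DESeq2 called 4, 3, 0 and 1. The burn term over both ages called Bhlhe41 alone, at -0.68 (adjusted p = 0.0164).

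Of 9 muscle genes downstream of the clock, 3 were called lower in young sham than in adult sham, where 6.49% of all genes were, namely Ppp1r3c at -0.84 (adjusted p = 0.00564), a regulator of glycogen, Slc2a4 at -0.48 (adjusted p = 0.00960), the insulin-regulated glucose transporter, and Myod1 at -1.05 (adjusted p = 0.0160), a myogenic factor. Between the burn groups Slc2a4 at -0.51 (adjusted p = 0.00804), Ppp1r3c at -0.76 (adjusted p = 0.0123) and Pdk4 at -0.94 (adjusted p = 0.0313), a brake on glucose oxidation, were lower in young burn, where 9.54% of all genes were. Neither burn comparison called any of the 9 in edgeR or DESeq2, with 2 in each at an unadjusted p under 0.05. Of all 12651 genes, 1731 reached that level in adult mice and 2026 in young mice. Of 6 tested genes that cycle in many tissues, 1 was called in each age comparison. Of all genes, 11.8% were called between the sham groups and 20.7% between the burn groups. The gene was Dtx4, higher in young than in adult mice, at 0.73 in sham (adjusted p = 0.0244) and at 0.69 after burn (adjusted p = 0.0285). Tspan4 was the only 1 of the 6 called after burn in young mice, at 1.05 (adjusted p = 0.0447), where 0.664% of all genes were called. All 6 had positive log2 fold changes there, with a median of 0.43. With all 12 libraries edgeR called none of these 6 in any comparison, with adjusted p = 0.109 for Tspan4 and 0.0581 and 0.0536 for Dtx4. DESeq2 on all 12 called 1 of them between the sham groups and 1 after burn in young mice.

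Glucocorticoids set the clock of many tissues, and Per1 is among their targets, so 12 glucocorticoid-responsive genes were read beside it. After burn in adult mice 3 of 12 rose, where 0.909% of all genes were called in either direction, and 11 had positive log2 fold changes, led by the metallothionein Mt1 at 1.13 (adjusted p = 0.0184), Zbtb16 at 1.00 (adjusted p = 0.0283) and Cebpd at 1.31 (adjusted p = 0.0443). None of these was called with all 12 libraries. The burn term over both ages called Mt1 at 0.83 (adjusted p = 0.0179) and Errfi1, an inhibitor of growth factor receptors, at 0.46 (adjusted p = 0.0388). In young mice none was called after burn in edgeR or in DESeq2 on 11 libraries, while DESeq2 on all 12 called 1. An unadjusted p under 0.05 in edgeR was found for 3, where 2026 of 12651 genes had one. The interaction called none, with 6 at an unadjusted p under 0.05, where 1410 of 12651 genes had one. Between young burn and adult burn 5 of 12 were lower, where 9.54% of all genes were, or 3 with all 12 libraries. All 12 had negative log2 fold changes, with Zbtb16 at -1.14 (adjusted p = 0.00389), Klf9 at -0.71 (adjusted p = 0.0160), Cebpd at -1.20 (adjusted p = 0.0171) and Pdk4 having the lowest adjusted p. Per1 itself was at 43.2 ± 12.1 CPM in adult burn and 29.8 ± 5.4 CPM in adult sham (SD, n = 3), a log2 fold change of 0.53 (adjusted p = 0.539). Of 9 immediate early genes tested, 1 was called between the sham groups, where 11.8% of all genes were. It was Nr4a1, lower in young sham at -0.59 (adjusted p = 0.0184), a call lost with all 12 libraries. Between the burn groups 2 of 9 were called, where 20.7% of all genes were. Atf3 was lower in young burn, at -1.68 (adjusted p = 0.00930), and Ier2 higher, at 0.83 (adjusted p = 0.0188).

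Markers of cell types were read beside the clock genes. Of all genes tested, 11.8% were called between the sham groups and 20.7% between the burn groups. After burn, 0.909% were called in adult mice and 0.664% in young mice. The summed level of 4 macrophage markers was 83.9 to 110 CPM in young sham and 159 to 249 CPM in young burn, and 87.1 to 98.1 CPM in adult sham and 105 to 149 CPM in adult burn, with 1 of 4 called higher after burn in young and 0 in adult mice. The 4 neutrophil markers summed to 1.62 to 3.17 CPM in young sham, to 8.79 to 8.96 CPM in young burn replicates 1 and 3, and to 27.0 CPM in young burn replicate 2. They summed to 1.70 to 4.55 CPM in adult sham and to 5.96 to 13.1 CPM in adult burn. Of the 2 that were tested, 1 was called higher after burn in young mice and 0 in adult mice. The 3 Schwann cell markers summed to 170 to 301 CPM in young sham and 129 to 148 CPM in adult sham, and 2 of 3 were called higher in young sham. The 4 tendon markers summed to 379 to 407 CPM in young sham and to 139 to 261 CPM in young burn, and to 159 to 371 CPM in adult sham and 152 to 254 CPM in adult burn. None of the 4 was called after burn at either age, and 1 was called higher in young sham than in adult sham. Of the 3 endothelium markers 1 was called lower in adult burn than in adult sham, and 1 higher in young burn than in adult burn. Of 4 keratinocyte markers, Krt5, Krt14 and Krt1 were at 0 in every library, and Krt10 was called higher in young sham, at 9.26 to 10.9 CPM, than in adult sham, at 5.17 to 5.51 CPM. Between the burn groups, 2 of the 4 macrophage and 2 of the 3 Schwann cell markers were called higher in young burn. Of the 5 myofibre markers, 1 was called lower in young sham and 1 lower in adult burn, each against adult sham. Between the burn groups 1 myofibre marker was called higher and 1 lower in young burn. None of the adipocyte, red blood cell or proliferation markers tested was called in these comparisons. The part of all these cells in the differences of clock genes was not tested.

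Among the 5 genes whose log2 CPM, centred on its mean over the 11 libraries, came nearest to that of Arntl were Pdxp, Ikzf4, Gm12059 and Ccdc14, with root mean square differences of 0.30 to 0.39 where the profile of Arntl itself had a root mean square of 0.70. Nearest to the profile of Arntl with its sign turned were Nepn, Per3, Phex, Smagp and Cldn15, at 0.34 to 0.40. Per3 was thus the only clock gene among them, at 0.34. Nearest to Dbp, whose profile had a root mean square of 0.54, were Nrip1, C530008M17Rik, Mylk4, Met and Tcap, at 0.23 to 0.29. With all 12 libraries 2 of each 5 stayed among the nearest.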

How the data were processed

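Poly-A RNA of 12 gastrocnemius samples was sequenced on an Illumina NextSeq. The authors aligned reads to GRCm38 with STAR (2.7.5c in the submitters' processing notes), and the deposited values are raw counts per Gencode M25 gene from its GeneCounts option, without normalization. No source used here names the strand counted. Gene positions came from Gencode M21, where 260 genes had no match. Counts were analysed in R 4.3.3 with edgeR 4.0.16: TMM, filterByExpr (minimum count 10, minimum total 15), a mean per group and two-sided quasi-likelihood tests with Benjamini-Hochberg adjustment over all 12651 genes tested, on 11 libraries. Standard errors were taken from the log2 fold change and its F value. Log2 CPM used a prior count of 2. DESeq2 1.42.0, other scalings, no filter, a replicate block and each library left out were alternatives, and scripts were checked on simulated data. Total counts were 4392605 to 5688512 per library, and no molecular identifiers were used. Named were all 10 clock genes, per list and comparison at most the 4 called genes with the lowest adjusted p, and the 5 nearest genes to Arntl, to Arntl with its sign turned and to Dbp. The clock genes and the lists were chosen with earlier results of these data known. A few genes that this rule names are not reported here. The small RNA libraries were not used here. Figures were drawn with matplotlib 3.10.9.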

Additional observations from a re-analysis of the deposited data

How the results depend on the processing

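With all 12 libraries, the number of clock genes called was 0 between the sham groups, 0 for burn in young mice and 2 between the burn groups, in place of 2, 1 and 4, and DESeq2 on all 12 called 1, 0 and 2. No filter on low counts gave 6, 7 and 7, 1 for adult burn against adult sham, 4 for the interaction and 4 for the burn term, among 28070 genes tested, of which 1890, 593, 2841, 562, 241 and 799 were called. Scaling by library size alone gave 4 between the sham groups, where 1789 of 12651 genes were called. The median log2 fold change of all genes was then -0.13. A fit of the 2 burn groups alone gave 7, where 2660 of 12437 genes were called. The cause was not tested. Each of the 11 libraries was also left out in turn. Fits without young burn replicate 1 or 3, with 1 mouse in that arm, are not counted in these ranges. The clock genes called were 0 to 4 between the sham groups, 0 to 1 for burn in young mice and 2 to 5 between the burn groups. All genes called were 564 to 1772, 7 to 203 and 1725 to 2837, of 12543 to 12628 tested. The interaction called 0 to 1 clock gene (Arntl, without adult sham replicate 3) and 4 to 31 genes in all. The burn term called 0 to 1 (without young sham replicate 1) and 94 to 394 genes in all. With the replicate number as a block, the counts were 0 between the sham groups, 0 for burn in young mice and 3 between the burn groups. Of all 12651 genes tested, 1184, 7 and 1834 were then called. With this block and all 12 libraries the counts were 0, 0 and 2, where 343, 9 and 1165 of 12408 genes were called. The labels do not say whether replicate numbers pair the mice. Deviations were correlated over 0.1 in 3 of 18 pairs with the same number and in 5 of 36 with different numbers. With groups of 3 mice, these counts cannot exclude a pairing by number. Of 451 values of clock genes under all alternatives, whose main unadjusted p was under 0.05, 386 kept their direction and their side of the threshold. Of the others 42 were no longer called and 23 were newly called, and none changed direction. Most of the 451 were not called in the main fit and could only stay so or be newly called. All 42 losses fell on calls of the main fit, each kept in only 10 to 17 of its 20 alternatives. The fewest were for Arntl after burn in young mice, and the most for Nr1d1 between the burn groups. These alternatives include the fits with 1 young burn mouse. A young burn arm of 2 mice and counts of 3 to 35 for Npas2 limit what could be detected.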

Other observations

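Young burn replicate 2 differed from the other young burn mice in several genes of the clock and of glucocorticoid response that are no members of the 10, chosen after their values were seen. Cry1 was at 33.2 CPM in it and at 15.6 and 14.9 CPM in replicates 1 and 3, and Cry2 was at 65.9 CPM against 29.9 and 25.1 CPM. Both encode cryptochromes, the partners of the Per proteins. The repressor Bhlhe40 was at 21 CPM against 86.9 and 104 CPM, the lowest of all 12 libraries. Mt1 was at 131 CPM against 39.8 and 50.1 CPM, the highest of all libraries. Genes of these lists did not all move alike in that mouse. Of the 12 glucocorticoid-responsive genes, 6 were the highest of the group in it and 2 the lowest. Of the 15 other clock genes tested, 6 were highest and 8 lowest. Sgk1, for example, was at 64.5 CPM against 188 and 155 CPM.

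Fkbp5, a glucocorticoid target, had the order of Per1 among the 3 mice of each group. It was picked for this order after the values were known, and how many other genes had that order was not counted. Sgk1 and Tsc22d3 did not have it, being lowest of their group in young burn replicate 2 at 64.5 and 189 CPM, where Per1 was highest. Fkbp5 was highest in young burn replicate 2 within its group, at 64.6 CPM against 32.3 and 51.7 CPM, and lowest in young sham replicate 2, at 15.4 CPM against 64.5 and 38.3 CPM. In adult sham it was at 98.2, 54.8 and 36.1 CPM in replicates 1 to 3, and in adult burn at 80.8, 123 and 109 CPM.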
